A study of Homo sapiens with 6 samples.

Results

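The 10 genes described here encode the E2F transcription factors E2F1 to E2F8 and the RB-like pocket proteins RBL1 (p107) and RBL2 (p130). They were chosen by gene symbol, as 10 of the 60668 genes in the deposited table, and all 10 passed the filter for testing. The study asked how pancreatic ductal adenocarcinoma (PDAC) cells adapt to glucose withdrawal. MiaPaCa-2 cells, an established human PDAC line, were kept for 48 h in 2.5 mM glucose (3 libraries, low glucose) or in 25 mM glucose (3 libraries, control), and total RNA was profiled by strand-specific RNA-seq. The labels name no drug or genetic change in either group. The treatment text of the labels gives 2.5 mM for all 6 samples although the titles of 3 of them read control. All libraries come from 1 cell line, so the replicates carry no genetic variation.

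E2F proteins bind DNA as dimers with a DP partner at promoters of genes for DNA replication and cell-cycle entry. E2F1, E2F2 and E2F3 activate transcription when released from the retinoblastoma protein RB1. E2F4 and E2F5 act mainly as repressors together with RBL1 and RBL2, E2F6 represses without a pocket protein, and E2F7 and E2F8 are atypical repressors that bind DNA without a DP partner. In resting cells E2F4 or E2F5 and an RB-like protein join the MuvB core to form the DREAM complex, which silences cell-cycle genes. Cyclin-dependent kinases lift this repression, and several members, E2F1 and RBL1 among them, are themselves classical E2F target genes.

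Under low glucose, mRNAs of all 3 activators (E2F1, E2F2 and E2F3), of the atypical repressor E2F8 and of RBL1 fell, whereas E2F4, E2F5, E2F6, E2F7 and RBL2 did not pass the test. The largest decreases among the 10 were those of E2F2, to 0.310 of the control mean, and of E2F8, to 0.408. Because the libraries are bulk samples, fewer cells in a cell-cycle phase and less mRNA per cell cannot be told apart. Among the 21101 genes tested with limma, 30.9% passed at an adjusted p under 0.05, 16.2% as lower and 14.7% as higher in low glucose, and 5 lower and 0 higher of 10 members stand beside this wide background. The conditions did not overlap for 6 members, 5 of them lower, against 43.9% of tested genes in either direction and 21.8% in the lower one. The median log2 fold change was -0.36 over the 10 members and 0.05 over all tested genes. Values below are normalized counts, that is, gene counts divided by 1 size factor per library, and fold changes are on the log2(normalized count + 1) scale.

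Gene reads numbered 9741183, 10126218 and 10190154 in the control libraries, and control values are given in this order. The low-glucose libraries are replicate 1 (10841656 reads), replicate 2 (10595408 reads) and a library of 13733477 reads with no number in the labels, and their values follow in that order. The labels name 2 of these libraries, and the other 4 were grouped by the run of their column names. Control libraries differed from each other more than low-glucose libraries did, with a median absolute log2 difference of 0.15 to 0.24 against 0.10 to 0.11 over the 13769 genes whose mean reached 20. The control library of 10126218 reads was the farthest from its group, and values without it are given where they change the call of a member or of a list named below. The cells expressed keratins KRT8, KRT18 and KRT19 at means of 1972 to 42487, with VIM at 60793 in control, while the epithelial markers EPCAM and CDH1 had at most 3 reads in any library. The blood markers PTPRC and CD3E and the fibroblast marker DCN had 0 reads in every library, whereas the monocyte marker CD14 had 11 to 45 reads. The fibroblast marker COL1A2 had a mean of 2755 in control and 1924 in low glucose, and the endothelial marker CDH5 had 173 and 10.5. COL1A1 and LUM, also fibroblast markers, had 3 to 14 reads and at most 1 read per library. PECAM1 and VWF, also endothelial markers, had at most 3 and at most 4 reads. By limma, the 3 keratins, CD14, COL1A2 and CDH5 were lower in low glucose and VIM was higher, at a mean of 80980. The part of these changes in the results was not tested.

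In hg38, the build the reads were mapped to, the activators lie at separate loci: E2F1 (ENSG00000101412.13) at chr20:33675477-33686385, E2F2 (ENSG00000007968.7) at chr1:23506438-23531233 and E2F3 (ENSG00000112242.15) at chr6:20401879-20493714. The repressors are E2F4 (ENSG00000205250.9) at chr16:67192155-67198918, E2F5 (ENSG00000133740.11), E2F6 (ENSG00000169016.17) at chr2:11444375-11466177, E2F7 (ENSG00000165891.16) at chr12:77021248-77065569 and E2F8 (ENSG00000129173.13) at chr11:19224063-19241620. The RB-like genes are RBL1 (ENSG00000080839.12) at chr20:36996349-37095997 and RBL2 (ENSG00000103479.16) at chr16:53433977-53491648. Positions are whole genes in Gencode 44, and reads were counted over each gene, so isoforms cannot be told apart.

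Promoter sequences from RefSeq (GRCh38.p14, the assembly of hg38) were available for 8 of the 10 members, with none for E2F5 and E2F8. The window searched ran from 250 bases before to 50 bases after the annotated start. The E2F motif was searched as TTTCCCGC, TTTCGCGC, TTTGCCGC or TTTGGCGC on both strands. It was present in 3.31% of all 35116 promoters, which were not limited to tested genes or to 1 promoter per gene. Of the 12457 tested genes with a promoter sequence, 640 held it. Among the 8 promoters of members it was present in 4, those of E2F1, E2F2, E2F3 and RBL1. These 4 are also the members with a promoter sequence whose mRNA fell, and their 120 bases before the start are shown for that reason, 5′ to 3′ along the gene, with the motif in capitals. The stretches lie at chr20:33686386-33686505 (minus strand) for E2F1, chr1:23531234-23531353 (minus strand) for E2F2, chr6:20401759-20401878 (plus strand) for E2F3 and chr20:37095998-37096117 (minus strand) for RBL1.
E2F1: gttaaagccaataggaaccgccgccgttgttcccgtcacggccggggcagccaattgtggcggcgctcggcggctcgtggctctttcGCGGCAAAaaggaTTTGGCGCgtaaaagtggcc
E2F2: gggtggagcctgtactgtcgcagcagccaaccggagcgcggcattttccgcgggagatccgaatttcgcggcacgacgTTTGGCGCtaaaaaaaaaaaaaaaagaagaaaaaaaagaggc
E2F3: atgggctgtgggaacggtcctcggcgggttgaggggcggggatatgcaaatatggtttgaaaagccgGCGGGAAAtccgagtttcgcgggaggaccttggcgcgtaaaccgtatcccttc
RBL1: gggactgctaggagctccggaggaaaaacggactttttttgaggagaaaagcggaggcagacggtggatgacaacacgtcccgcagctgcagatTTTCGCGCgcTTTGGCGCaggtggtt
The E2F1 and RBL1 promoters each held 2 matches, and those of E2F2 and E2F3 held 1. Every match began within 53 bases of the start, at 33 and 20 bases before it in E2F1 and at 26 and 16 in RBL1. No match in the windows of E2F4, E2F6, E2F7 and RBL2 says only that these letters are not there.

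All 3 activators were lower in each low-glucose library than in any control library. E2F1, the founding member of the family, had normalized counts of 930.5, 753 and 1057 in control and of 534, 571 and 608 in low glucose. The highest low-glucose value lay below the lowest control value. Its mean decreased from 914 ± 152 (SD, n = 3) to 571 ± 37.3 (SD, n = 3), a difference of -0.67 on the log2 scale (95% interval -0.90 to -0.43, SE 0.111, limma adjusted p = 0.000383). The control library of 10126218 reads was the lowest control, and without it the log2 fold change was -0.80.

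E2F2 is the activator with the largest change. It had 211, 192 and 173 in control and 58.7, 56.3 and 63.6 in low glucose, with means of 192 ± 18.7 (SD, n = 3) and 59.5 ± 3.75 (SD, n = 3). The conditions were far apart, and a log2 fold change of -1.67 (SE 0.144, adjusted p = 1.35e-06 by limma) placed E2F2 at percentile 0.445 of all tested genes, counted from the lowest. E2F3, whose locus encodes a long and a short isoform that gene counts do not separate, changed less. It had 680.5, 794 and 662 in control against 532, 585 and 543 in low glucose, again without overlap. Its log2 fold change of -0.36 (SE 0.0917) had an adjusted p of 0.008 by limma, and the call was lost without low glucose replicate 1 (adjusted p = 0.0556) and without the variance trend of the test (adjusted p = 0.0744). The intervals of E2F2 (-1.98 to -1.36) and of E2F3 (-0.56 to -0.16) on the log2 scale did not overlap. The plot of normalized counts by library shows the activators together with the other members.

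**Figure D1:**
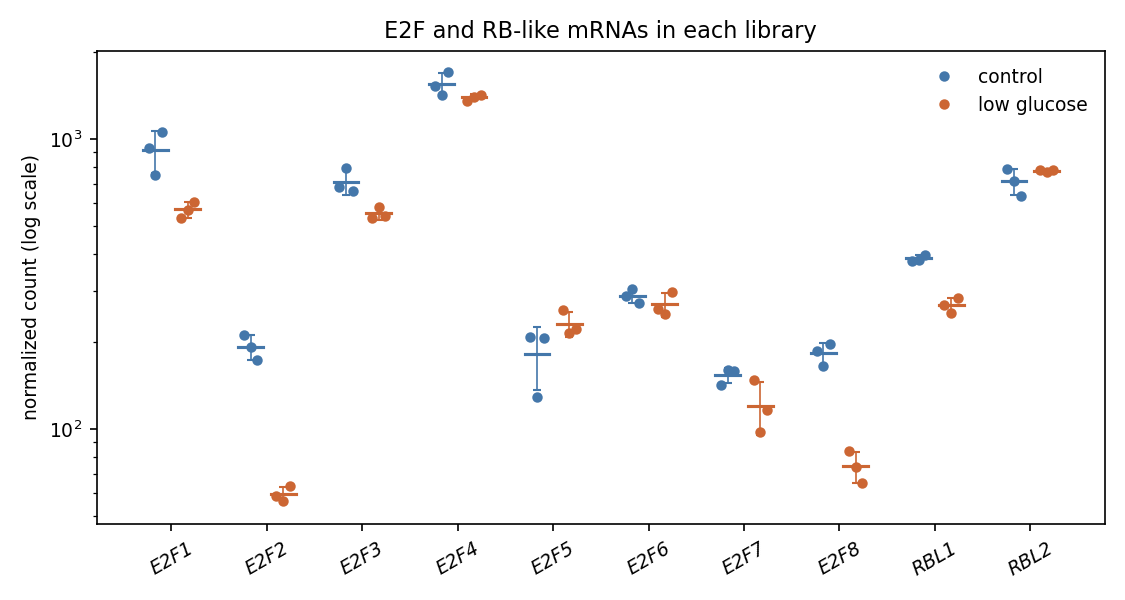
Normalized counts (log scale) of the 10 members in each of 3 control and 3 low-glucose libraries; points are libraries, long bars the mean and error bars the SD. For E2F1, E2F2, E2F3, E2F8 and RBL1 every low-glucose point lies below every control point, and for E2F5 every one lies above.

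Of the 5 repressors, 1 passed the test. E2F8, an atypical repressor that limits E2F1 activity late in S phase, had 186, 165 and 196 in control and 83.7, 74.1 and 65.2 in low glucose. The conditions were again well apart. E2F8 fell to a log2 fold change of -1.29 (SE 0.146, adjusted p = 1.51e-05 by limma). E2F7, its closest relative and dimer partner, had 142, 159 and 158 in control and 147, 97.8 and 116 in low glucose. Here low glucose replicate 1 lay inside the control range, and the log2 fold change of -0.37 (95% interval -0.70 to -0.04) had a limma adjusted p of 0.0872. Without that library it was -0.52 (adjusted p = 0.0371). The intervals of E2F7 and E2F8 (-1.60 to -0.97) did not overlap.

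E2F4, the main partner of RBL2 in resting cells, was the most abundant member. It had 1518, 1417 and 1697 in control and 1355, 1398 and 1418 in low glucose, so the conditions touched at about the same level. The log2 fold change was -0.15 (95% interval -0.32 to 0.03, limma adjusted p = 0.193). Without the control library of 10126218 reads it was -0.21 with an adjusted p of 0.0174, and after quantile normalization it was 0.04.

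E2F5, the other canonical repressor, was the one E2F above its control level in every low-glucose library. It had 207, 129 and 205 in control and 257, 214 and 222 in low glucose. The log2 fold change of 0.38 (95% interval 0.03 to 0.73) had a limma adjusted p of 0.0931. The low control value came from the library of 10126218 reads, without which the log2 fold change was 0.16, and without the control library of 10190154 reads the call was gained (0.49, adjusted p = 0.0263). E2F5 shares 997 bp of exon with RBIS on the other strand, which had 87 to 192 reads per library and changed by 0.22 (limma adjusted p = 0.417). E2F5 also shares 133 bp with ENSG00000254208 on the other strand, which had 9 to 43 reads and changed by 0.97 (limma adjusted p = 0.0613). The strand setting of the counting is not given in the sources used here, so the E2F5 value is uncertain to that extent.

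E2F6, which recruits a Polycomb-type complex and needs no pocket protein, had 288, 304 and 272 in control and 259.7, 249.9 and 297 in low glucose. The ranges overlapped. The log2 fold change was -0.10 (95% interval -0.33 to 0.13, limma adjusted p = 0.513), and the 4 annotated E2F6 pseudogenes had 0 reads.

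**Figure D2:**
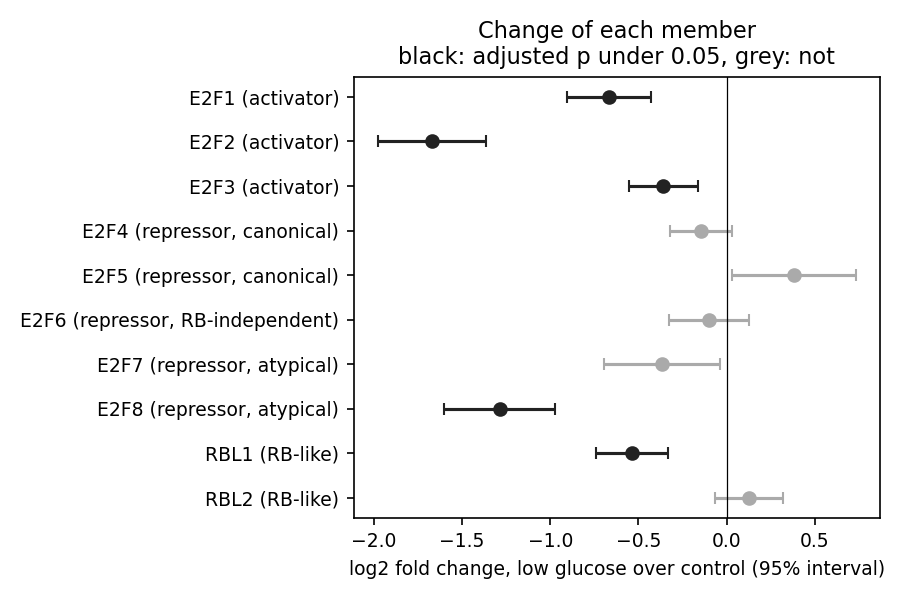
Log2 fold change of each member, low glucose over control, with its 95% interval from limma (not adjusted for multiple tests). Black marks an adjusted p under 0.05 and grey the rest; the 3 activators, E2F8 and RBL1 lie left of 0 in black.

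The RB-like genes parted. RBL1, which is transcribed mainly in cycling cells, had 380.0, 383 and 398 in control and 267, 251 and 282 in low glucose. The lowest control value exceeded the highest low-glucose value. RBL1 changed by -0.54 on the log2 scale (SE 0.0951, adjusted p = 0.000629 by limma). It shares 213 bp of exon with ENSG00000269846 on the other strand, which had 14 to 38 reads per library. RBL2, the form that predominates in resting cells, had 788, 716 and 638 in control and 781, 768 and 780.4 in low glucose. All 3 low-glucose values were within the control range, and the log2 fold change was 0.13 (95% interval -0.06 to 0.32, limma adjusted p = 0.312). RBL2 shares 609 bp of exon with AKTIP on the other strand, which rose by 0.54 (adjusted p = 0.00527). It also shares 721 bp with ENSG00000279344 on the other strand, which had 82 to 172 reads per library. The strand setting of the counting is not given, so the RBL1 and RBL2 values are uncertain to that extent. RB1 itself, the founding pocket protein, ranged from 644 to 670.4 in control and from 626 to 650.1 in low glucose, with a log2 fold change of -0.03 (95% interval -0.20 to 0.14, limma adjusted p = 0.796).

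Over 11 other processings with all libraries, the log2 fold change of E2F1 ranged from -0.72 to -0.56, that of E2F2 from -1.79 to -1.48 and that of E2F8 from -1.40 to -1.21. For E2F3 and RBL1 the ranges were -0.41 to -0.27 and -0.57 to -0.46. The order of size, with E2F2 and E2F8 ahead of the others, was kept in these ranges.

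Levels of different genes were compared per length, as TPM, a length- and depth-scaled unit computed from the recovered reads. In control, E2F4 (129 ± 11.4 TPM, SD, n = 3) and E2F1 (102 ± 17.0) were the most abundant members. E2F3 (41.4 ± 3.98), RBL2 (26.6 ± 3.19), E2F6 (21.4 ± 1.28), RBL1 (19.6 ± 0.328) and E2F8 (13.3 ± 1.18) followed, and E2F2 (10.6 ± 1.19), E2F5 (9.09 ± 2.29) and E2F7 (7.35 ± 0.349) closed the order. The ranges of neighbours overlapped for E2F6 and RBL1, for E2F2 and E2F5 and for E2F5 and E2F7. In low glucose the first 6 places were the same, and E2F2 was last at 3.15 ± 0.230 TPM, behind E2F8 at 5.19 ± 0.641 TPM, E2F7 at 5.53 ± 1.18 TPM and E2F5 at 11.1 ± 1.15 TPM. E2F7 and E2F8 overlapped there, and so did RBL1 and E2F5.

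Activators and repressors were set against each other within each library. The 3 activators made up 46.4%, 45.7% and 46.1% of the summed TPM of E2F1 to E2F8 in control and 37.2%, 39.2% and 38.9% in low glucose. The share was lower in every low-glucose library than in any control library, with means of 46.1% ± 0.346 (SD, n = 3) and 38.4% ± 1.11 (SD, n = 3). Its level depended on the length used. With the longest transcript as length the means were 39.7% and 32.4%, and from reads without length 43.7% and 36.2%. The summed TPM of the activators went from 154 ± 12.7 to 95.3 ± 4.74, and that of the 5 repressors from 181 ± 13.2 to 153 ± 4.43. E2F7 and E2F8 together made up 11.2% to 11.7% of the repressor sum in control and 6.35% to 8.28% in low glucose. The ratio of RBL1 to RBL2 TPM was 0.657, 0.730 and 0.850 in control and 0.466, 0.445 and 0.492 in low glucose. The exon overlaps of RBL1 and RBL2 limit this ratio as well. These shares and ratios combine the members and were given no test.

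**Figure D3:**
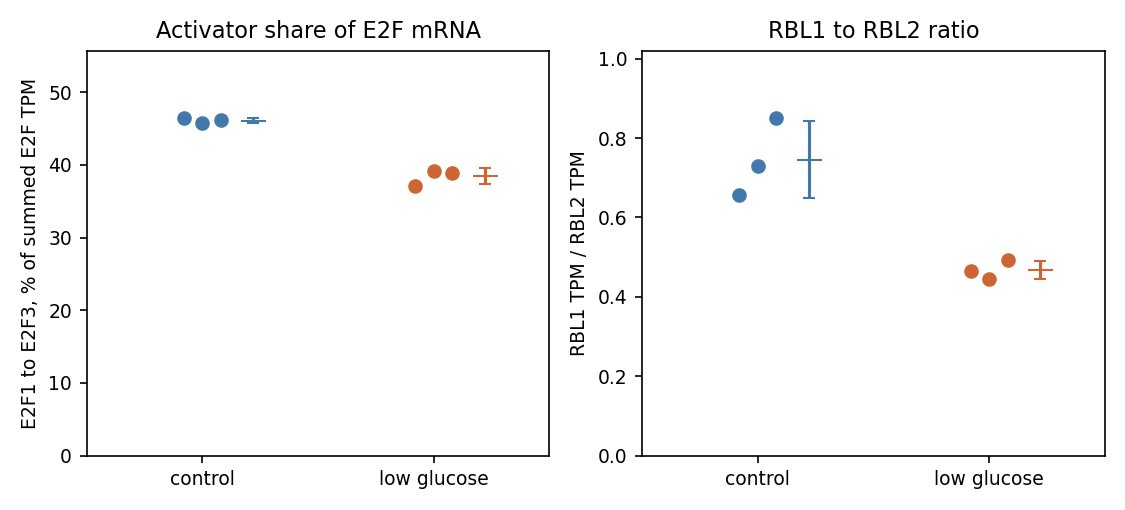
Left, summed TPM of E2F1, E2F2 and E2F3 as a percentage of that of E2F1 to E2F8 in each library; right, ratio of RBL1 to RBL2 TPM. Points are libraries and bars the mean with SD; the low-glucose points lie at 37.2% to 39.2% and 0.445 to 0.492, below all control points.

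Among the partners of the family, some fell and others did not pass. TFDP1, the main DP partner and itself an E2F target, had 2142, 2026 and 2133 in control and 1306, 1454 and 1428 in low glucose. It fell by 0.59 on the log2 scale (limma adjusted p = 4.17e-05), whereas TFDP2 changed by -0.15 (adjusted p = 0.259) and TFDP3 had 0 reads. Of the MuvB core, the DNA-binding subunit LIN54 (-0.51), LIN9 (-0.81) and the histone-binding RBBP4 (-0.35) fell, with limma adjusted p-values of 0.00112 to 0.00576. LIN52 (-0.07) and LIN37 (0.68, at 9 to 37 reads) did not pass, nor did DYRK1A (0.23, adjusted p = 0.0548), the kinase that promotes DREAM assembly. MYBL2 (B-MYB) and FOXM1, which bind MuvB in cycling cells and activate mitotic genes, changed by -1.07 and -0.82 (limma adjusted p = 6.37e-07 and 1.46e-05). Over these 12 partner genes, 11 were tested, 6 were lower and 0 higher, with a median log2 fold change of -0.35, beside 16.2% lower and 14.7% higher among all tested genes.

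Of 14 genes of the E2F6 repressor complex, 6 were lower and 0 higher, with a median log2 fold change of -0.20, beside the same 16.2% and 14.7%. L3MBTL2, its chromatin-binding subunit, fell by 0.63 (limma adjusted p = 8.40e-05), WDR5 by 0.54, the methyltransferases EHMT2 and EHMT1 by 0.40 and 0.30, MGA by 0.33 and HDAC2 by 0.33. PCGF6, the Polycomb subunit that defines the complex, stood at 0.30 (adjusted p = 0.0550) and did not pass. The count was 3 after quantile normalization and 3 without the variance trend, all lower. Of all 21101 tested genes, 6025 passed after quantile normalization, 3125 of them lower. Without the variance trend 4090 passed, 1991 of them lower. The count for the complex was 7 without the control library of 10126218 reads. In that fit 7251 of all 21141 tested genes passed, 3741 lower and 3510 higher. Of 7 germline genes that this complex is known to silence, MAEL, SLC25A31 and TDRD1 had 0 reads in every library and DDX4 had at most 4, while SMC1B, STAG3 and SYCP3 were tested and did not pass.

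Of 50 G1/S target genes, a widely used list without E2F8 plus textbook targets, 47 were lower and 0 higher, with a median log2 fold change of -0.80, beside 16.2% lower among all tested genes. Without the control library of 10126218 reads the count was 48, beside 3741 lower of all 21141 genes tested in that fit. The lowest were ORC1, a subunit of the origin recognition complex (-1.48), and UHRF1, which maintains DNA methylation (-1.46). RRM2, the regulated subunit of ribonucleotide reductase, had 4921, 4763 and 4827 in control and 2423, 2465 and 2585 in low glucose. It fell by 0.96 (limma adjusted p = 3.35e-07), CCNE2 by 0.48 (0.0103) and the licensing factor CDC6 by 0.26 (0.0185). CCNE1 (-0.31), DSCC1 (-0.27) and HELLS (-0.17) missed the threshold (adjusted p = 0.0842, 0.122 and 0.220 by limma). The log2 fold changes of E2F2 and E2F8 lay below the median of these targets, and those of the other 8 members above it.

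Of 57 G2/M genes, 54 were lower and 0 higher, with a median log2 fold change of -0.74. Among all tested genes 16.2% were lower and 14.7% higher. Without the control library of 10126218 reads, 55 of the G2/M genes were lower, beside 3741 of all 21141 genes tested in that fit. The proliferation marker MKI67 (-1.58) and CDCA2 (-1.33) were the lowest, and PLK1 and CCNB1 fell by 1.11 and 0.74. NUSAP1 (0.26, at 3 to 14 reads), UBE2C (0.04) and CKS1B (-0.29) did not pass. The G2/M promoters held the CHR element TTTGAA, the site read by LIN54, in 32 of 48 cases against 15.2% of all promoters. Of the 12457 tested genes with a promoter sequence, 1237 held CHR. The G1/S promoters held the E2F motif in 20 of 39 cases. Among the 640 tested genes with the E2F motif, 29.8% were lower, against 20.8% of the 12457 tested genes with a promoter sequence. Of the 1237 with the CHR element, 26.1% were lower, so the higher share was not particular to the E2F motif. When every gene of the lists was left out, the values were 26.9% of 609 genes for E2F and 24.1% of 1197 for CHR. These are descriptions of letters in a window and were not tested.

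**Figure D4:**
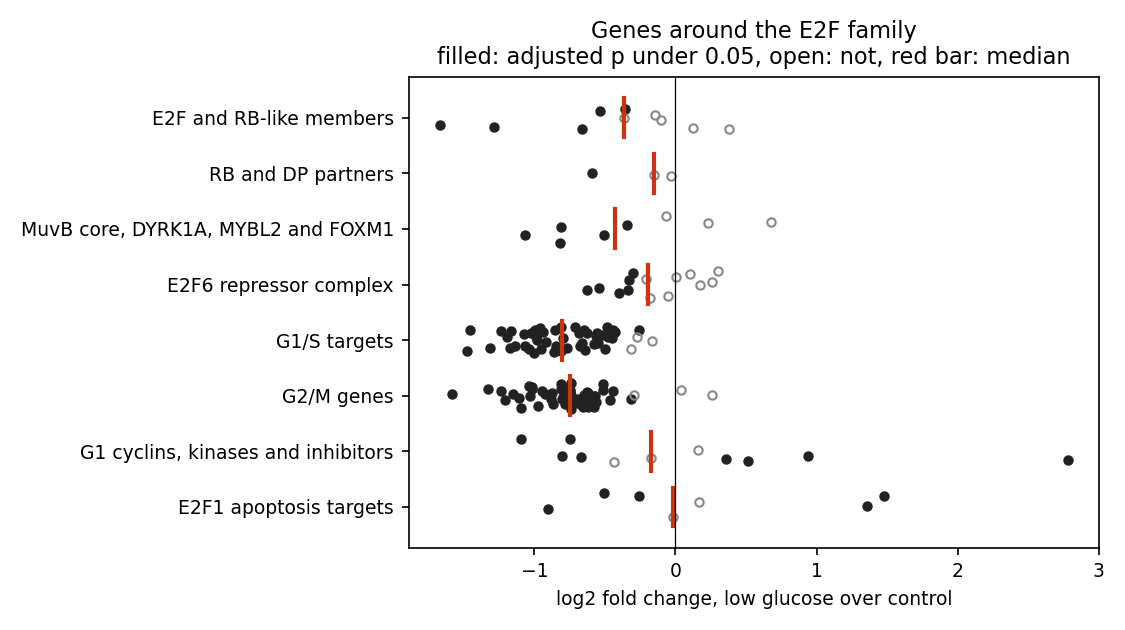
Log2 fold change, low glucose over control, of the tested genes of each list. Filled points have a limma adjusted p under 0.05, open points do not, and red bars mark the median, which lies at -0.36 for the members, -0.80 for the G1/S targets and -0.74 for the G2/M genes.

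Upstream of the pocket proteins, cyclins and kinase inhibitors moved in both directions, with 4 higher and 4 lower of 11 tested, beside 14.7% higher and 16.2% lower among all tested genes. Without the control library of 10126218 reads 4 were higher and 6 lower, beside 3510 higher and 3741 lower of all 21141 genes tested in that fit. CCND1 and CCND3, the D-type cyclins that start RB phosphorylation, fell by 0.80 and 0.75, and CDK2 by 0.67. CCND2 rose by 2.78 on the log2 scale from 4 to 9 reads per control library to 53 to 74, and CDK6 rose by 0.51. The inhibitors CDKN1A (p21) and CDKN1B (p27) rose by 0.94 and 0.36 (limma adjusted p = 0.00239 and 0.00433). CDKN2C (p18) fell by 1.09, and CDKN2A and CDKN2B had 0 reads in all libraries.

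Apoptosis genes known as E2F1 targets moved in both directions. TP73, a p53 relative, fell by 0.90 on the log2 scale (limma adjusted p = 0.0061). The BH3-only genes BBC3 and PMAIP1, which also respond to other stress pathways, rose by 1.48 and 1.36. APAF1 (0.16) and BCL2L11 (-0.02) did not pass.

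Over the 6 libraries, the genes whose log2 values followed E2F1 most closely were DDX11, UTP11 and BRD8, with Pearson r of 0.998, 0.997 and 0.997. For RBL1 they were TECR, AGPAT5 and KBTBD7. With 6 libraries in 2 conditions such values are common: 367 of the 13769 genes searched had an r above 0.95 with E2F1 and 1001 with RBL1.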

How the data were processed

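RNA-seq of 6 MiaPaCa-2 libraries was analysed from 1 table. Reads were trimmed with Trim Galore and mapped to hg38 with STAR 2.7.0e by the authors. Their software list names RSEM, but which program counted these reads, the strand setting and the annotation are not given in the sources used here. The deposited signal is gene counts that the authors divided by 1 size factor per library. All values (100%) were multiples of the value of 1 read within 0.01 reads, so reads were recovered, 9741183 to 13733477 per library. Symbols, exon lengths and overlaps came from Gencode 44 (99.4% of identifiers matched).

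Tests used log2(value + 1) for genes whose mean reached 1, with limma 3.58.1 (R 4.3.3, eBayes with trend, two-sided) and Benjamini-Hochberg adjustment over all 21101 genes. Alternatives were other scalings, filters, pseudocount and variance model, DESeq2 1.42.0, edgeR 4.0.16 and omission of each library. In simulated counts with 200 changed genes, limma recovered 191 with 8 false calls, edgeR 192 with 12 and DESeq2 184 with 3. The simulation changed far fewer genes than were called here. It held no changes as small as those of E2F1, E2F3 and RBL1, so it does not show how such changes are recovered. The 3 libraries per condition are biological replicates per the design text, and their number limits the precision. The members and gene lists were chosen with earlier results of these data known. Named were all members, any gene of the lists of at most 15 genes, fixed examples and the 2 lowest and 2 highest of the longer lists, and the genes most like E2F1 and RBL1. CKS1B and DSCC1 were named after their values were seen. Some genes of the apoptosis and marker lists are not reported here.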

Additional observations from a re-analysis of the deposited data

How the results depend on the processing

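Over 11 alternatives with all libraries and 6 that each left out 1 library, the 10 members gave 170 values, of which 163 kept their direction and side of the threshold, 2 lost a call, 4 gained one and 1 changed direction. E2F1, E2F2, E2F8 and RBL1 passed in all 17. E2F4 changed direction after quantile normalization (0.044, adjusted p = 0.743), without a call on either side. E2F7 gained a call there (-0.45, adjusted p = 0.0417). The number of members called was 4 to 6 with all libraries and 5 to 6 with 1 left out. The E2F6 complex count was 3 with quantile normalization and 3 without the variance trend, against 6, and 5 to 8 with 1 library left out. All tested genes gave 4090 calls without the variance trend and 4319 to 7251 with 1 library left out (4319 without low glucose replicate 1), against 6528. With library-size scaling 3935 genes were higher and 2647 lower, with TPM 2038 higher and 3355 lower, against 3111 and 3417. The causes were not tested. No paired analysis was possible because replicate numbers are missing for 4 columns of 6.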
